A study of Mus musculus with 12 samples.

Results

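The interferon-induced effector genes are the genes whose proteins block viruses after a cell has sensed interferon. A list of 53 such gene symbols was followed here in mouse bone marrow mesenchymal stem cells turning into fat cells, out of 23955 symbols in the deposited count table. The list was drawn up with results of these data in view, in which interferon genes were lower with rosiglitazone than with vehicle. The differences of rosiglitazone from vehicle, and of tributyltin from rosiglitazone, which share the rosiglitazone libraries, are therefore given for these genes as a description with no p-values. Counts of these genes past the significance threshold in those comparisons describe the list and are no independent evidence of the direction. Tributyltin against vehicle shares the vehicle libraries, so its p-values for these genes are not free of that choice either. Of the 53 genes, 52 passed the filter on low counts. Epsti1, an interferon-induced gene of epithelial and stromal cells, did not pass, with 0.536, 0.772, 0.856 and 0.87 CPM (read counts scaled to a common library size) in the 4 tributyltin libraries, 0, 0.158, 0 and 0.201 CPM in the rosiglitazone libraries and 1.19, 2.11, 0.414 and 0.948 CPM in the vehicle libraries.

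The cells were a commercial stock of bone marrow mesenchymal stem cells (OriCell, Cyagen) from female C57BL/6 mice whose age the labels do not give, used at passages 9 to 10. They grew to confluence and then received for 14 days a fat-inducing cocktail of insulin at 5 ug/mL, isobutylmethylxanthine at 0.5 mM and dexamethasone at 1 uM. Added to it were 50 nM tributyltin (TBT), an organotin that is a ligand of both the retinoid X receptors and the fat-cell receptor PPARγ; 500 nM rosiglitazone (ROSI), a PPARγ ligand used against diabetes; or 0.1% DMSO, the vehicle. Each group had 4 libraries, so all 3 groups carry the cocktail and no uninduced or interferon-treated cells enter the comparisons. Whether libraries of the same group were grown as separate cultures is not in the labels, and p-values below then measure only how far these libraries vary, which may be technical.

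Interferons are secreted proteins that bind paired receptors at the cell surface. The receptor kinases JAK1 and TYK2 then activate transcription factors, which join IRF9 and bind a DNA element called the interferon-stimulated response element (ISRE) in the promoters of the effector genes. The effectors degrade or sequester viral RNA, hold virus particles at the membrane, tag proteins with the ubiquitin-like ISG15, or block viral replication. Several stem and stromal cell types are known to keep some of these genes on without infection.

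The ISRE is the element through which interferon is known to act on many of the listed genes, so promoter windows were searched for it and the windows of 7 genes with matches are shown, chosen from the role groups described below. The windows come from RefSeq (GRCm38.p6) and run 250 bases before to 50 bases after the annotated gene start, 300 bases read in the direction of the gene. The submitters' processing notes name mm9, and no coordinate of their files is used here. Capitals mark each match to the ISRE core, which is a pair of GAAA runs with 2 bases of any kind between them, on either strand, and matches that overlap run together.
Isg15, chr4:156200769-156201068, minus strand: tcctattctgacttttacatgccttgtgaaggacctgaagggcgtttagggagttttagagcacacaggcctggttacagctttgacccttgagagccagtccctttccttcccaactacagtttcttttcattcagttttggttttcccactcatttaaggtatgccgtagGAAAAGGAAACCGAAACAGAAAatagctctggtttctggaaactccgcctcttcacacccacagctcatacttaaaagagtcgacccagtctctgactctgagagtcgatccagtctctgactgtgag
Ifit1, chr19:34640639-34640938, plus strand: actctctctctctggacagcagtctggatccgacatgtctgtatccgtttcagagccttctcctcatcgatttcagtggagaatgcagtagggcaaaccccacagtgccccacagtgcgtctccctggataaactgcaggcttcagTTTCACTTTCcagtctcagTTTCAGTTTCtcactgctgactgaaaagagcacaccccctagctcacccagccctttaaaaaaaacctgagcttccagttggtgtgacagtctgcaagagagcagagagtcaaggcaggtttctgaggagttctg
Ifit3, chr19:34583279-34583578, plus strand: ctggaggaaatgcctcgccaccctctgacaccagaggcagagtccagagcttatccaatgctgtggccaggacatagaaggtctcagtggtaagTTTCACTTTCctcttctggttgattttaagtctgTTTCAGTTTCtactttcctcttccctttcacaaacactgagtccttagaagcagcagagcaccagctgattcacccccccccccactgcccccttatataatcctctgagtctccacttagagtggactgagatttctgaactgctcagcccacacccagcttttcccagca
Oas1a, chr5:120907476-120907775, minus strand: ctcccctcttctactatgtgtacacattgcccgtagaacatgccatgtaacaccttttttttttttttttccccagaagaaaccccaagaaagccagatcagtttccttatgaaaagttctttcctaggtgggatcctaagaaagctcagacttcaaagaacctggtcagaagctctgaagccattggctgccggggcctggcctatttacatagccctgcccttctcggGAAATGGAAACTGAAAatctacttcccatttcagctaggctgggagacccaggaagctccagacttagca
Ddx60, chr8:61927837-61928136, plus strand: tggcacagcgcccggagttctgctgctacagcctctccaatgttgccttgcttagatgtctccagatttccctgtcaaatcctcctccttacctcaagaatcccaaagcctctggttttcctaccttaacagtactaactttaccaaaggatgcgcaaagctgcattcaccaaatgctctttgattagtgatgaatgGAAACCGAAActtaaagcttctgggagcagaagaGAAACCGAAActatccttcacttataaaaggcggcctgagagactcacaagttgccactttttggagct
Bst2, chr8:71537423-71537722, minus strand: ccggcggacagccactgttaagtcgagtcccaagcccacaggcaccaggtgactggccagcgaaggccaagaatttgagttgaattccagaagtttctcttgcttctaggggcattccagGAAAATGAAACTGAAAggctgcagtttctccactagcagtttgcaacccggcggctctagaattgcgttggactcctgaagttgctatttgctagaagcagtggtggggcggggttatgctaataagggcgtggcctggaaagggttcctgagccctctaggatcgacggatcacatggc
Ifitm3, chr7:141010695-141010994, minus strand: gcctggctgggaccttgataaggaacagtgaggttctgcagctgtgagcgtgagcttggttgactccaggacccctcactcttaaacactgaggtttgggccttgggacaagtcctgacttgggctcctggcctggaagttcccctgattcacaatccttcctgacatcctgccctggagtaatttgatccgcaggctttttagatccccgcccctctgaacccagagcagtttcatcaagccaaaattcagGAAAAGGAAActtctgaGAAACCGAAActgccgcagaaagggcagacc

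RefSeq windows were found for 41 of the 53 genes, 49 windows in all, since some genes have more than 1 annotated start. The core motif was in 23 of the 49 windows (46.9%), or in 20 of the 41 genes (48.8%), against 3.44% of all 32851 windows in the table and 3.08% of the 11678 windows of tested genes. A longer form of the motif, the core followed by CT, was in 28.6% of the listed genes' windows and 0.271% of all windows. The list was made of genes known as interferon-induced, and these shares describe the list. Windows of Isg15, with 3 overlapping matches, and of Oas1a, Oas1g, Bst2 and Ddx60 carried the core on the strand of the gene, while those of Ifit1, Ifit3, Rsad2, Apol9a and Apol9b carried it on the other strand. A match says only that these letters stand in the window.

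**Figure D1:**
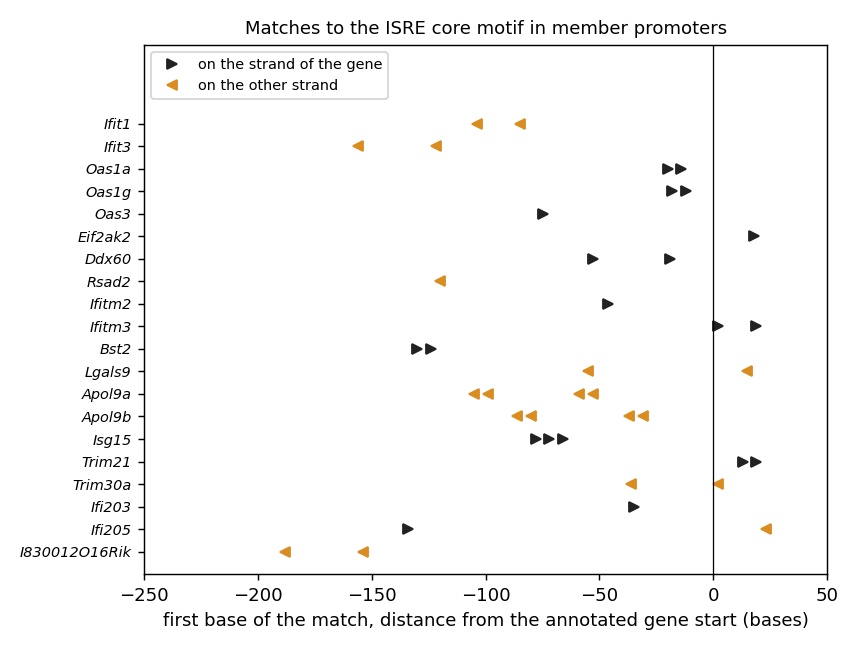
Position of each match to the ISRE core in the RefSeq promoter windows of the 20 listed genes that hold one; the x axis gives the first base of the match in bases from the annotated gene start, and arrowheads give the strand. In 19 of these genes at least 1 match lies within 150 bases before the start or in the 50 bases after it.

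The 20 genes with the core motif had a median log2 fold change of -3.06 in ROSI against DMSO (range -4.99 to -1.11), and the 20 tested genes with a window and no core motif had -1.77 (-4.25 to -0.70). Their medians in TBT against DMSO were -0.10 and -0.08. The windows carry only the annotated starts, and the difference between these medians was not tested.

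The library totals were 4639929 to 5988715 counts in TBT, 4027152 to 7474654 in ROSI and 4074568 to 7111542 in DMSO. TBT replicate 4 stood apart: 6.85% of its counts fell on Rn45s, the ribosomal RNA precursor, and 0.399% to 0.670% in the other TBT libraries, against 1.36% to 9.27% in ROSI and 2.64% to 6.18% in DMSO. Reads on 1457 sensory receptor genes, which most tissues keep silent, came to 107.3 to 185.5 CPM in all in TBT, 57.9 to 72.0 CPM in ROSI and 285.5 to 754 CPM in DMSO. The sums of these reads, here and below, are relative to library totals without TMM scaling. With TMM scaling the mean per gene was at most 0.136 CPM in a TBT library, 0.0478 CPM in a ROSI library and 0.501 CPM in a DMSO library. All other levels are CPM relative to the TMM-scaled library total, listed for replicates 1 to 4 of each group in that order. Fold changes are log2 values with their standard error (SE) from edgeR's quasi-likelihood fit to all 12 libraries.

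The effector genes were low in ROSI across all of their functions, and in TBT they lay on both sides of the DMSO level, from -1.69 for Oas2 to 1.05 for Samd9l on the log2 scale. In ROSI against DMSO, 51 of 52 tested genes lay past the threshold in the lower direction (Benjamini-Hochberg adjusted p of 0.05), where 12.6% of all 12323 tested genes did. The list was drawn up with this difference in view, so the count only describes it. Their median log2 fold change was -2.39, against 0.01 for all tested genes, and it ran from -4.99 for I830012O16Rik to -0.47 for Tor3a, the gene outside the threshold. In 50 of them all 4 ROSI libraries lay below all 4 DMSO libraries, as in 15.4% of all tested genes. Of the 51, Ifitm2 lay outside the threshold without DMSO replicate 1 or 2 or ROSI replicate 2, 3 or 4 (-1.25 to -0.97), and Ifi27l2a without DMSO replicate 1 or 2 or ROSI replicate 3 or 4 (-0.99 to -0.80). In TBT against DMSO the median was -0.01, the same as for all tested genes, and 8 of 52 genes passed, a share near the 15.2% of all tested genes that did. In TBT against ROSI, 50 genes were higher in TBT, where 12.8% of all tested genes were, with a median of 2.21. All 4 TBT libraries lay above all 4 ROSI libraries in 48 of the 52, as in 10.9% of all tested genes, and below them in 0, as in 9.89%. Of the 50 genes past the threshold, Ube2l6 lay outside the threshold without ROSI replicate 2 or 4 or TBT replicate 1 or 3 (1.01 to 1.15) and Oas3 without ROSI replicate 3 or TBT replicate 1 (2.88 to 3.04). RNA was measured in bulk, and fewer cells with these genes on cannot be told apart from less RNA of them in each cell.

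**Figure D2:**
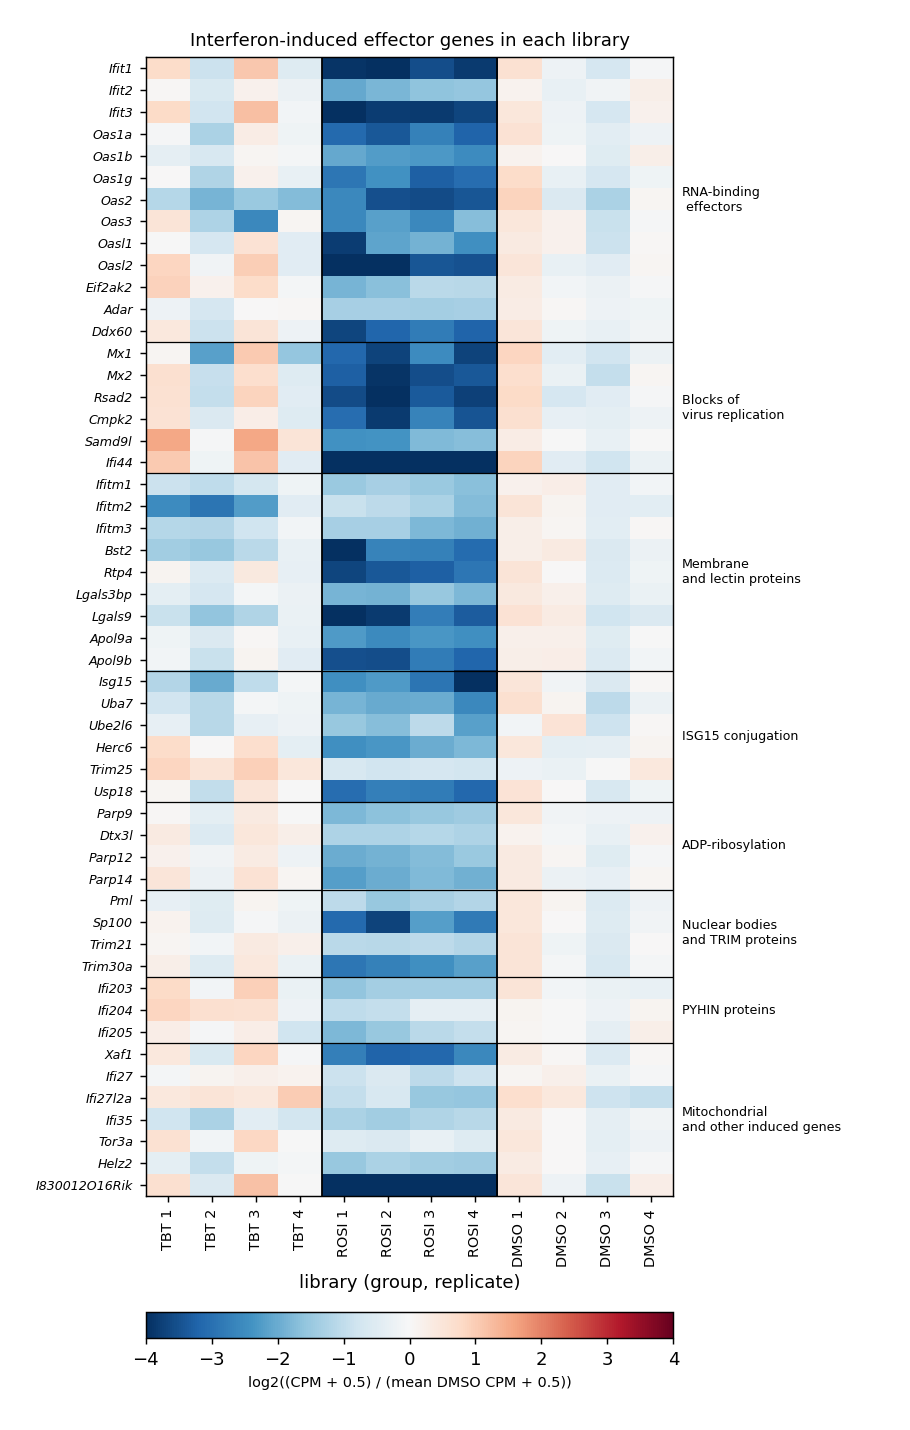
Level of the 52 tested effector genes (rows, by role) in each library (columns: TBT, ROSI, DMSO), as log2 of CPM plus 0.5 relative to the mean of the DMSO libraries, with blue below and red above that mean. The 4 ROSI columns are blue in nearly every row, while TBT replicates 1 and 3 are red in many rows and TBT replicate 2 and DMSO replicate 3 are pale blue.

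RNA-binding effectors detect or disable viral RNA. All 13 tested ones were lower in ROSI than in DMSO, with a median of -3.20, and 1 of 13 passed in TBT against DMSO. Ifit1, which binds viral RNA that lacks the host cap methylation, had 563, 183, 705 and 237 CPM in the TBT libraries, 21.8, 19.4, 27.9 and 23.1 CPM in the ROSI libraries and 509.9, 292, 212 and 327 CPM in the DMSO libraries. Oasl2, a relative of the oligoadenylate synthetases, had 498, 249.5, 547 and 204 CPM in the TBT libraries, 17.1, 16.9, 25.5 and 24.5 CPM in the ROSI libraries and 385, 224, 203 and 294 CPM in the DMSO libraries. For both genes every ROSI library was below the lowest DMSO library, and TBT and DMSO libraries overlapped. The fold changes in ROSI against DMSO were -3.85 ± 0.39 for Ifit1 and -3.71 ± 0.31 for Oasl2, and in TBT against DMSO 0.33 ± 0.33 (adjusted p = 0.52) and 0.44 ± 0.27 (adjusted p = 0.28), neither past the threshold by edgeR.

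Eif2ak2 encodes PKR, the kinase that stops translation when it meets double-stranded RNA, and had 333, 199, 293 and 167 CPM in the TBT libraries, 47.9, 54.7, 83.95 and 82.05 CPM in the ROSI libraries and 222, 165, 149 and 169.9 CPM in the DMSO libraries. Ifit2, which binds RNA beside IFIT1, had 140.1, 89.2, 154 and 116 CPM in the TBT libraries, 32.1, 38.1, 43.9 and 46.1 CPM in the ROSI libraries and 151, 110.4, 122 and 159 CPM in the DMSO libraries. ROSI libraries were again below every DMSO library for each gene, with smaller fold changes of -1.39 ± 0.22 for Eif2ak2 and -1.75 ± 0.18 for Ifit2. Ifit3, a partner of IFIT1, had 161, 55.4, 217 and 87.6 CPM in the TBT libraries, 3.01, 6.32, 6.21 and 7.02 CPM in the ROSI libraries and 131, 82.1, 59.1 and 107 CPM in the DMSO libraries. Its neighbour I830012O16Rik, listed as Ifit3b in RefSeq, had 91.7, 38.99, 133 and 57.2 CPM in the TBT libraries, 1.003, 1.9, 2.07 and 2.01 CPM in the ROSI libraries and 81.5, 50.3, 31.5 and 69.5 CPM in the DMSO libraries. These are among the 5 largest differences of the list, at -4.03 ± 0.40 and -4.99 ± 0.44 in ROSI against DMSO, and at 4.49 ± 0.40 and 5.45 ± 0.44 in TBT against ROSI. The pair share 51.2% of the 50-base words of the Ifit3 transcripts and 44.5% of those of I830012O16Rik, so reads of 50 bases could be assigned to either gene and their separate values are uncertain.

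Oas2, an oligoadenylate synthetase, makes a small RNA-like messenger when it meets double-stranded RNA, and was the only RNA-binding effector past the threshold in TBT against DMSO. Oas2 had 2.86, 1.54, 2.14 and 1.74 CPM in the TBT libraries, 0.752, 0.158, 0.129 and 0.201 CPM in the ROSI libraries and 13.3, 4.45, 2.62 and 7.43 CPM in the DMSO libraries. It was low in every ROSI library and lower in TBT than in DMSO, although TBT replicate 1 lay above DMSO replicate 3. The fold change was -4.57 ± 0.62 in ROSI against DMSO, or -5.23 without ROSI replicate 1, and -1.69 ± 0.45 in TBT against DMSO (edgeR adjusted p = 0.02), and the call in TBT was lost without DMSO replicate 1 (-1.20) or without TBT replicate 2 (-1.57). The other genes of the oligoadenylate synthetase family, Oas1a, Oas1b, Oas1g, Oas3, Oasl1 and Oasl2, lay between -0.37 and 0.44 in TBT against DMSO and did not pass. RefSeq annotates Oas1b as a transcribed pseudogene. Oas1a and Oas1g share 57.6% and 45.2% of their 50-base words and are uncertain as separate genes.

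The genes that block virus replication showed the largest median difference of any role group in ROSI against DMSO, -3.91 over 6 genes. Of the 6, Samd9l rose in TBT against DMSO. Ifi44, an antiviral gene of unsettled mechanism, had 495, 210, 524 and 173 CPM in the TBT libraries, 11.8, 13.9, 11.9 and 12.2 CPM in the ROSI libraries and 440.3, 173, 138 and 199 CPM in the DMSO libraries. The ROSI libraries spanned 11.8 to 13.9 CPM, while the highest library was 3.03 times the lowest in TBT and 3.19 times in DMSO, and those groups overlapped. Its fold change was -4.25 ± 0.41 in ROSI against DMSO and 0.56 ± 0.34 in TBT against DMSO (edgeR adjusted p = 0.27), where it passed without TBT replicate 4 (0.80) or without DMSO replicate 1 (1.04).

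Samd9l, a restriction factor of poxviruses, had 420.2, 139, 421 and 204 CPM in the TBT libraries, 26.3, 27.02, 41.4 and 43.1 CPM in the ROSI libraries and 175, 139.7, 117 and 139.9 CPM in the DMSO libraries. TBT replicates 1, 3 and 4 were above all DMSO libraries and TBT replicate 2 lay among them. Samd9l rose in TBT (fitted log2 change 1.05 ± 0.28, edgeR adjusted p = 0.02) and was at -2.04 ± 0.30 in ROSI against DMSO. The call in TBT was lost without TBT replicate 1, TBT replicate 3, DMSO replicate 2 or DMSO replicate 3, with log2 fold changes of 0.83 to 1.05. Rsad2 encodes viperin, which makes a chain-terminating nucleotide, and had 53.97, 18.1, 66.1 and 25.9 CPM in the TBT libraries, 2.51, 1.26, 2.98 and 2.21 CPM in the ROSI libraries and 59.6, 21.8, 25.4 and 34.1 CPM in the DMSO libraries. Its fold change was -3.95 ± 0.46 in ROSI against DMSO, and TBT and DMSO overlapped (0.23 ± 0.35). Mx1, whose product in other strains blocks influenza virus and which RefSeq annotates as a transcribed pseudogene in C57BL/6J, had 6.43, 0.965, 13.1 and 1.74 CPM in the TBT libraries, 0.251, 0, 0.647 and 0 CPM in the ROSI libraries and 11.4, 4.45, 3.31 and 5.06 CPM in the DMSO libraries. It rested on 1 and 5 counts in ROSI replicates 1 and 3, and its fold change there was -4.40 ± 0.91, or -6.03 without ROSI replicate 3. Mx2, also in this group, has the same RefSeq annotation as Mx1.

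Membrane and lectin proteins were the role group with most calls in TBT against DMSO, 4 of 9, all lower, where 7.03% of all tested genes fell, and their median there was -0.65. The median in ROSI against DMSO was -2.45. Ifitm3, which stops viruses from fusing with endosomes, had 889, 867, 1118 and 1793 CPM in the TBT libraries, 778, 784, 560.4 and 511 CPM in the ROSI libraries and 2279, 2057, 1451 and 2021 CPM in the DMSO libraries. Ifitm2, its close relative, had 117, 86.7, 142 and 485 CPM in the TBT libraries, 359.5, 319, 279 and 201 CPM in the ROSI libraries and 959.6, 721, 482 and 502 CPM in the DMSO libraries. For Ifitm2 TBT replicates 1 to 3 were below every ROSI library and TBT replicate 4 was among the DMSO libraries. Ifitm3 fell in TBT (fitted log2 change -0.74 ± 0.22, edgeR adjusted p = 0.033) and was at -1.57 ± 0.23 in ROSI against DMSO. Ifitm2 fell in TBT (fitted log2 change -1.68 ± 0.41, edgeR adjusted p = 0.012) and was at -1.20 ± 0.40 in ROSI against DMSO. It was the only listed gene with a lower fitted level in TBT than in ROSI, at -0.48 ± 0.40, and at -1.32 without TBT replicate 4. Without TBT replicate 4 the differences from DMSO were -1.01 for Ifitm3 and -2.52 for Ifitm2.

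Ifitm1, the third member of the family, had 31.1, 28.2, 34.7 and 50.7 CPM in the TBT libraries, 20.1, 22.6, 19.9 and 17.4 CPM in the ROSI libraries and 64.9, 69.02, 41.6 and 52.6 CPM in the DMSO libraries. Bst2 encodes tetherin, which holds budding virus particles at the cell surface, and had 28.2, 25.7, 34.9 and 60.02 CPM in the TBT libraries, 4.26, 11.2, 11 and 8.43 CPM in the ROSI libraries and 87.9, 95.9, 49.9 and 63.9 CPM in the DMSO libraries. In both genes TBT replicates 1 to 3 lay below all DMSO libraries and TBT replicate 4 lay within the DMSO range. Ifitm1 fell in TBT (fitted log2 change -0.65 ± 0.19, edgeR adjusted p = 0.029) and Bst2 (fitted log2 change -1.0 ± 0.27, adjusted p = 0.022). These 2 calls were lost without any 1 of DMSO replicates 1 and 2 and TBT replicates 1 to 3 (-0.64 to -0.55 for Ifitm1 and -0.97 to -0.85 for Bst2), and that of Ifitm3 was lost without any of these or DMSO replicate 4 (-0.73 to -0.62). The call of Ifitm2 held in all 12 fits that left out 1 library, with values of -2.52 to -1.42. In ROSI against DMSO, Ifitm1 was at -1.50 ± 0.20 and Bst2 at -3.04 ± 0.31.

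Lgals3bp, a secreted galectin ligand, had 282, 231, 353 and 312 CPM in the TBT libraries, 102, 98.6, 129 and 107 CPM in the ROSI libraries and 489, 426, 261 and 307 CPM in the DMSO libraries. Rtp4, a chaperone that also inhibits flaviviruses, had 113, 71.6, 137 and 82.2 CPM in the TBT libraries, 7.77, 9.48, 10.3 and 13.4 CPM in the ROSI libraries and 148, 105, 70.6 and 92.8 CPM in the DMSO libraries. Each was lower in all ROSI libraries than in any DMSO library, at -1.76 ± 0.19 and -3.33 ± 0.26, and neither passed in TBT against DMSO (-0.33 ± 0.18 and -0.04 ± 0.22). Among the others of the group, Lgals9, Apol9a and Apol9b were at -3.47 to -2.45 in ROSI against DMSO. Apol9b shares 52.3% of its 50-base words with Apol9a and is uncertain as a separate gene.

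**Figure D3:**
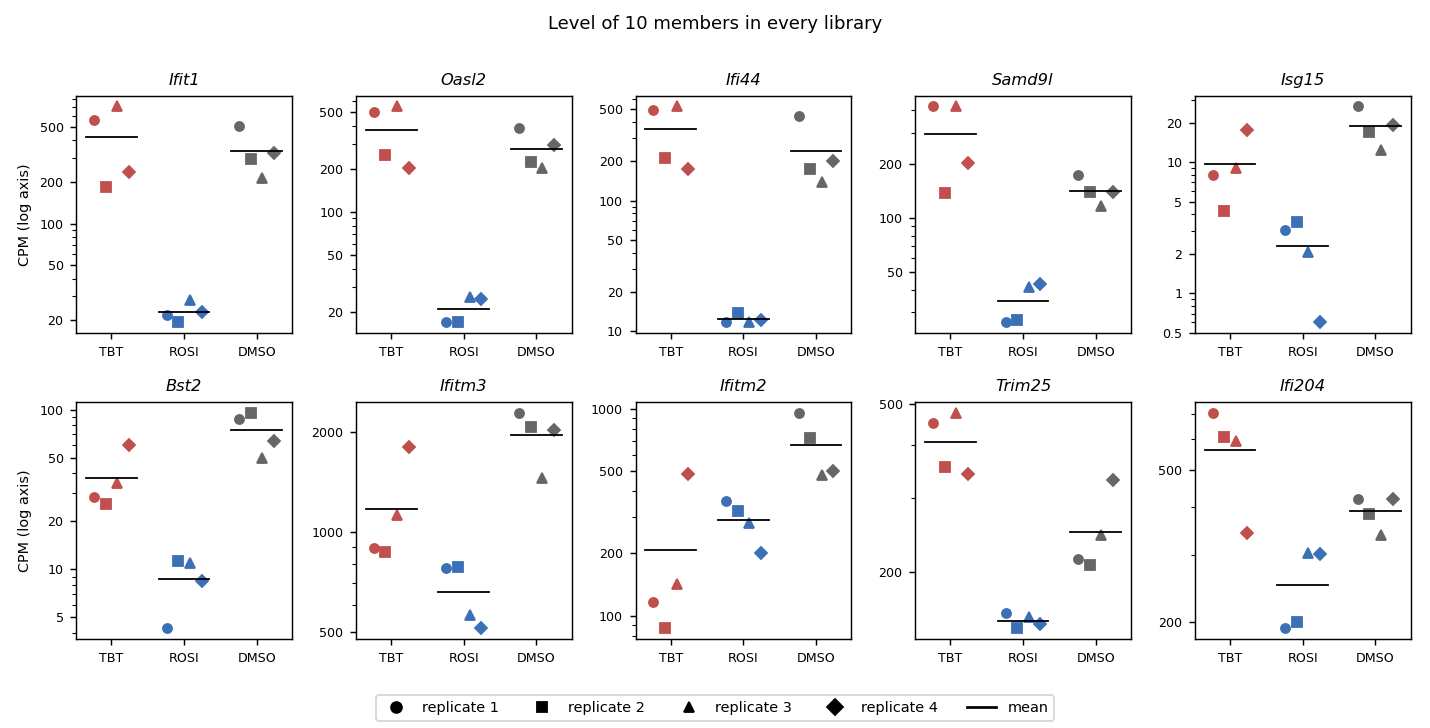
CPM on a log axis of 10 effector genes in each TBT, ROSI and DMSO library; marker shapes give the replicate and the black line the group mean. Ifit1, Oasl2, Ifi44 and Samd9l are lower in each ROSI library than in any TBT or DMSO library, whereas for Ifitm2 TBT replicates 1 to 3 (86.7 to 142 CPM) lie below the 4 ROSI libraries and TBT replicate 4 lies at 485 CPM.

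ISG15 conjugation attaches a ubiquitin-like protein to viral and host proteins. All 6 of its genes were lower in ROSI than in DMSO, with a median of -2.23. Trim25, a ubiquitin ligase that activates the RNA sensor RIG-I, had 450.4, 355, 478 and 342 CPM in the TBT libraries, 159, 147, 156 and 149.9 CPM in the ROSI libraries and 214, 207, 244 and 331 CPM in the DMSO libraries. It rose in TBT (fitted log2 change 0.71 ± 0.15, edgeR adjusted p = 0.0074), the 4 TBT libraries lay above the 4 DMSO libraries, and the call held in all 12 fits that left out 1 library (0.61 to 0.87). In ROSI it was lower by a smaller amount than most of the list (-0.70 ± 0.16). Herc6, the mouse ligase that attaches ISG15, had 174, 105, 168 and 81.1 CPM in the TBT libraries, 18.8, 20.4, 26.1 and 30.1 CPM in the ROSI libraries and 145, 80.02, 81.2 and 115 CPM in the DMSO libraries. Usp18, the protease that removes ISG15 and also damps the interferon receptor, had 47.2, 22.4, 63.3 and 44.4 CPM in the TBT libraries, 5.01, 6.32, 5.95 and 4.61 CPM in the ROSI libraries and 65.1, 45.6, 28.6 and 39.7 CPM in the DMSO libraries. Both were lower in every ROSI library, at -2.14 ± 0.25 and -3.00 ± 0.31, and neither passed in TBT against DMSO (0.33 ± 0.24 and -0.01 ± 0.26). Isg15 itself, Uba7 and Ube2l6 were at -3.01, -2.33 and -1.66 in ROSI against DMSO.

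The ADP-ribosylation genes modify proteins at sites of infection and DNA damage, and all 4 were lower in ROSI than in DMSO, at -1.97 to -1.23, while none of the 4 had a fold change beyond 0.26 in TBT against DMSO. Parp14 had 109, 66.4, 116 and 81.98 CPM in the TBT libraries, 16.6, 19.4, 22.6 and 20.1 CPM in the ROSI libraries and 101, 65.98, 62.03 and 82.5 CPM in the DMSO libraries. Parp12, which restricts several RNA viruses, had 76.8, 62.1, 85.1 and 59.4 CPM in the TBT libraries, 16.8, 18.2, 19.9 and 24.3 CPM in the ROSI libraries and 86.7, 71.4, 48.2 and 66.1 CPM in the DMSO libraries. TBT and DMSO libraries of the 2 genes overlapped, at 0.26 ± 0.18 and 0.06 ± 0.17, and no ROSI library reached the lowest of either group. Of the nuclear body and TRIM genes, all 4 were lower in ROSI. Trim30a, which restrains inflammatory signalling, had 123, 72.8, 142 and 87.2 CPM in the TBT libraries, 13.8, 15.6, 18.5 and 22.7 CPM in the ROSI libraries and 151, 100.1, 67.5 and 99.4 CPM in the DMSO libraries. Pml, the scaffold of nuclear bodies, had 52.7, 47.1, 72.1 and 58.1 CPM in the TBT libraries, 31.8, 22.8, 26.8 and 29.1 CPM in the ROSI libraries and 91.2, 70.9, 45.3 and 56.9 CPM in the DMSO libraries. Trim21, a receptor inside the cell for antibody-coated virus, had 38.6, 33.6, 47.1 and 42.2 CPM in the TBT libraries, 17.1, 16.6, 17.5 and 15.8 CPM in the ROSI libraries and 52.5, 32.5, 24.04 and 36.4 CPM in the DMSO libraries. The fold changes in ROSI against DMSO were -2.56 ± 0.25 for Trim30a, -1.26 ± 0.20 for Pml and -1.11 ± 0.20 for Trim21, and those in TBT were between -0.19 and 0.16 for these 3 genes.

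PYHIN proteins bind DNA, and their 3 genes here showed smaller differences in ROSI than the RNA-binding effectors, -1.42 to -0.64. Ifi204 had 704, 607, 593 and 341 CPM in the TBT libraries, 193, 199.9, 304 and 302 CPM in the ROSI libraries and 420.3, 383, 338 and 420.2 CPM in the DMSO libraries. Ifi205 had 172, 137, 172 and 81.5 CPM in the TBT libraries, 40.9, 48.98, 67.4 and 73.4 CPM in the ROSI libraries and 148, 141, 110.4 and 169 CPM in the DMSO libraries. In both genes TBT replicates 1 to 3 stood together and TBT replicate 4 was lower than all of them, at the lower edge of the DMSO libraries or below it. Ifi204 was at -0.64 ± 0.20 in ROSI against DMSO, past the threshold in all but 5 of 12 fits with 1 library left out (DMSO replicates 1, 2 and 4 and ROSI replicates 1 and 2, at -0.65 to -0.53). The value in TBT against DMSO was 0.52 ± 0.20 (edgeR adjusted p = 0.083) with TBT replicate 4 and at 0.72 without it (adjusted p = 0.0023).

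The last group holds mitochondrial and other interferon-induced genes. Ifi27, a small mitochondrial membrane protein, had 209.5, 236, 254 and 246 CPM in the TBT libraries, 122, 147, 107 and 125 CPM in the ROSI libraries and 232, 253, 182 and 215 CPM in the DMSO libraries. Helz2, a helicase that is also a nuclear receptor coactivator, had 85.4, 57.5, 99.3 and 104 CPM in the TBT libraries, 38.4, 45.5, 42.6 and 41.3 CPM in the ROSI libraries and 138, 111, 88 and 107 CPM in the DMSO libraries. Tor3a, an ATPase of the endoplasmic reticulum, had 114, 69.1, 131 and 73.3 CPM in the TBT libraries, 51.9, 49.3, 60.4 and 51.2 CPM in the ROSI libraries and 101, 74.4, 56.6 and 64.2 CPM in the DMSO libraries. Ifi27 and Helz2 were lower in each ROSI library than in any DMSO library, at -0.82 ± 0.13 and -1.40 ± 0.18, and Tor3a overlapped between ROSI and DMSO, at -0.47 ± 0.21. Ifi35, a regulator of innate signalling, had 14.3, 10.2, 19.04 and 15.2 CPM in the TBT libraries, 10.3, 9.48, 10.7 and 11.6 CPM in the ROSI libraries and 32.8, 25.97, 19.9 and 23.1 CPM in the DMSO libraries. Each of its TBT libraries lay below each of its DMSO libraries, and Ifi35 fell in TBT (fitted log2 change -0.78 ± 0.20, edgeR adjusted p = 0.014). The call was lost without DMSO replicate 1 (-0.64). Ifi35 was at -1.26 ± 0.20 in ROSI against DMSO, and TBT and ROSI libraries overlapped.

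**Figure D4:**
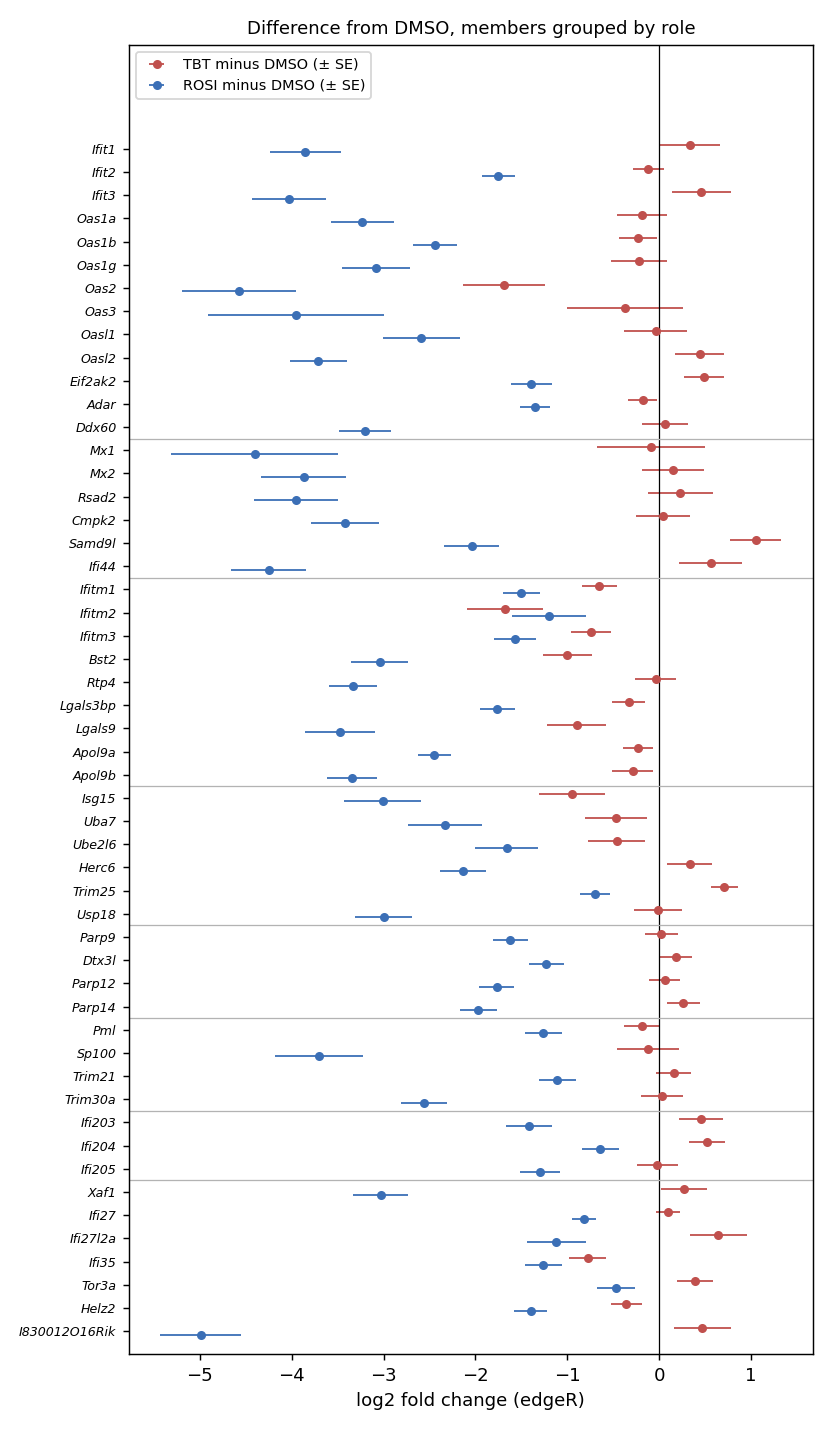
Log2 fold change with SE of the 52 tested effector genes in TBT against DMSO (red) and ROSI against DMSO (blue), by role, from 1 edgeR fit; both share the DMSO libraries. The ROSI values run from -4.99 to -0.47, and the TBT values lie from -1.69 to 1.05 on both sides of 0.

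Of the 52 tested genes, 8 passed in TBT against DMSO, a share near the 15.2% of all tested genes that did, and they lay in both directions. With all libraries 6 genes fell (Oas2, Ifitm1, Ifitm2, Ifitm3, Bst2 and Ifi35), where 7.03% of all tested genes fell, and 2 rose (Samd9l and Trim25), where 8.22% rose. With upper-quartile scaling in place of TMM, 1143 of all tested genes fell and 748 rose, against 866 and 1013, and the same 8 listed genes passed. The libraries did not overlap for Ifi35 and Trim25, as in 8.26% of all tested genes in the lower and 7.42% in the higher direction. The contrast shares its DMSO libraries with ROSI against DMSO. The list was drawn up with the latter difference in view, which can favour genes that read high in these DMSO libraries. The falls in TBT against DMSO, with their p-values, are therefore not free of that choice. Without DMSO replicate 1 the calls of Oas2, Ifitm1, Ifitm3, Bst2 and Ifi35 were lost. Without TBT replicate 4, 17 of the 52 genes passed, 9 lower and 8 higher. That share is near the 32.6% of all 12635 genes then tested that passed. The additional lower ones were Isg15 (-1.38), Lgals9 (-1.18) and Helz2 (-0.45), and the additional higher ones were Ifi44 (0.80), Ifi204 (0.72), Oasl2 (0.65), Eif2ak2 (0.65), Ifi203 (0.63) and Tor3a (0.52). Lgals9 also passed without DMSO replicate 3 or 4 (-1.18 to -1.05 over the 3 fits), and Ifi44 without DMSO replicate 1. With any 1 of TBT replicates 1, 2 or 3 or of DMSO replicates 1 and 2 left out instead, 4 of the 52 passed, a share near the 8.12% to 9.17% of all genes tested in those fits.

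The fold changes in TBT varied with the base composition of the transcripts. Among the 52 genes, the difference of TBT replicates 1 to 3 from DMSO had a Spearman rho of -0.67 with transcript GC content, across genes, which are not independent replicates. Over all 12212 tested genes with a GC value the rho was -0.34. The 26 listed genes with a GC content under 50.4% had a median of 0.28 in TBT replicates 1 to 3 relative to DMSO, and the 26 at or above it had -0.29. The corresponding medians over all tested genes were 0.12 and -0.22. In TBT replicate 4 relative to DMSO the rho over the list was 0.06, and in ROSI relative to DMSO it was 0.16. With transcript length, TBT replicates 1 to 3 relative to DMSO had a rho of 0.35 over the list and 0.10 over all tested genes. The part of base composition or length in the TBT differences was not tested.

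**Figure D5:**
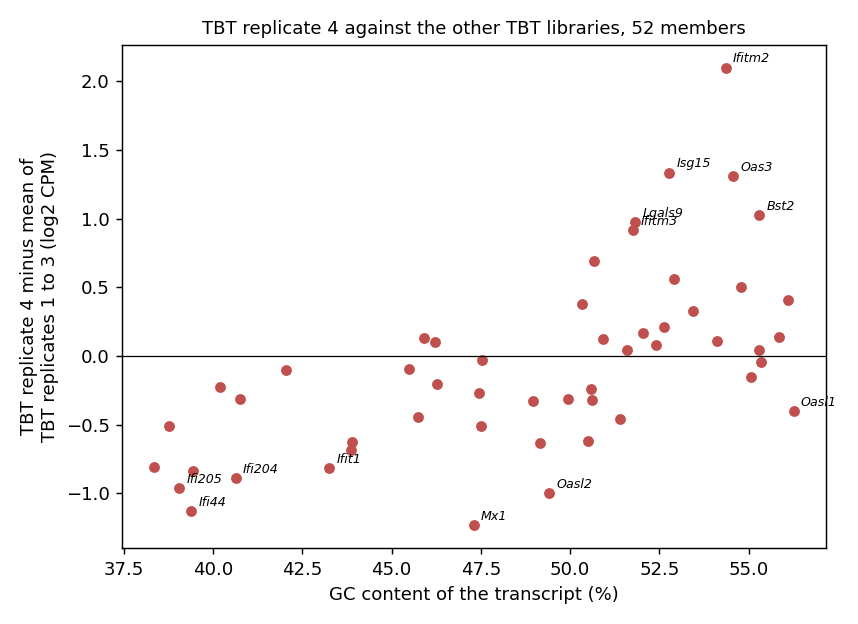
Difference of TBT replicate 4 from the mean of TBT replicates 1 to 3 (log2 CPM) against the GC content of the transcript for 52 effector genes, 1 point per gene. GC-rich genes such as Ifitm2 (2.10), Isg15 (1.33) and Bst2 (1.02) lie above 0 and GC-poor genes such as Ifi44 (-1.13) and Ifi205 (-0.96) lie below it, with a Spearman rho of 0.68 over these genes and 0.33 over all 12212 genes.

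Compared with TBT replicates 1 to 3, TBT replicate 4 was higher in 22 of the 52 genes and lower in 30. The membrane and lectin genes were higher in it by a median of 0.69, from -0.33 to 2.10 for Ifitm2. The PYHIN genes were lower by a median of -0.89 and the genes that block virus replication by -0.63. The membrane and lectin genes had the highest median GC content of the role groups, 54.4%, and the PYHIN genes the lowest, 39.1%. The replication blocks, at 45.6%, and the nuclear body and TRIM genes, at 45.9%, differed little in GC content, and the median of the nuclear body and TRIM genes was -0.03. With transcript length the difference of TBT replicate 4 had a Spearman rho of -0.36 over the list and -0.19 over all 12212 genes. The part of GC content or length in this difference was not tested.

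Most effector genes ranked the DMSO libraries alike, and in part the TBT libraries, while the order of the ROSI libraries was less shared. Among DMSO libraries, replicate 1 was the highest for 42 of the 52 genes, as in 25.2% of all tested genes, and replicate 3 was the lowest for 45, as in 20.8%. Their median deviations from the DMSO mean were 0.51 and -0.46 on the log2 scale, against 0.00 and -0.02 for replicates 2 and 4. Among TBT libraries replicate 3 was the highest for 35 genes, as in 20.1% of all tested genes, and replicate 2 the lowest for 40, as in 23.9%. The median deviations of these TBT libraries were 0.34 and -0.46. TBT replicate 4 was the highest for 10 genes and the lowest for 9. In ROSI replicate 3 was the highest for 21 genes, as in 21.7% of all tested genes, and replicate 1 the lowest for 21, as in 26.8%. Median deviations in ROSI stayed between -0.07 and 0.11. Over the 48 listed genes with a mean of at least 5 CPM, the median coefficient of variation was 31.4% in TBT, 22.0% in ROSI and 28.6% in DMSO, against 19.0%, 13.7% and 14.4% over all 10233 such genes. It reached 89.7% for Ifitm2 in TBT and 57.7% for Ifi44 in DMSO.

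Other measures also differed between the DMSO libraries. Summed sensory receptor reads were 754, 652, 285.5 and 374 CPM in DMSO replicates 1 to 4, and the summed level of 7 fat-cell genes was 1048, 968, 1864 and 1187 CPM. DMSO replicate 3, with the lowest effector levels, had the highest fat-cell sum of its group and the lowest receptor reads. DMSO replicates 1 and 2 had similar fat-cell sums and differed in the effector genes. In TBT the fat-cell sums were 3236, 2972, 2982 and 2005 CPM. The part of these measures in the spread of the effector genes was not tested.

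Genes of the interferon pathway outside the list were tested in the same fit, 30 of 51 in the table having passed the filter. This list too was drawn up with interferon genes known to be lower in ROSI, so its adjusted p-values, taken over all tested genes, are no independent evidence of that direction. In ROSI against DMSO 14 of the 30 fell, where 12.6% of all tested genes did, and 2 rose, where 10% did, with a median of -0.54. The TBT libraries had 6 of the 30 lower than DMSO, where 7.03% of all tested genes fell, and 1 higher, where 8.22% rose, with a median of -0.17. In TBT against ROSI 11 rose, where 12.8% did, and 4 fell, where 11.1% did. The ligands were at the edge of detection: 14 interferon genes had 28 counts in all over the TBT libraries, 18 over the ROSI libraries and 50 over the DMSO libraries, and none passed the filter. Of the receptors, Ifnar1, a chain of the type I receptor, had 25.2 ± 2.65 CPM in TBT, 39.4 ± 4.15 CPM in ROSI and 37.9 ± 4.91 CPM in DMSO (SD, n = 4 each), and fell in TBT (fitted log2 change -0.58 ± 0.14, edgeR adjusted p = 0.013). Ifngr1, a chain of the interferon gamma receptor, rose in ROSI (log2 fold change 0.62 ± 0.13, edgeR adjusted p = 0.0017). Ifnar2 did not pass in ROSI (-0.34 ± 0.13) or TBT (-0.26 ± 0.13), and passed in ROSI with upper-quartile scaling (-0.37) or without TBT replicate 4 (-0.34). The kinases Jak1, Jak2 and Tyk2 were at -0.12 ± 0.15, 0.02 ± 0.11 and -0.58 ± 0.22 in ROSI against DMSO and did not pass, with Tyk2 passing in a fit of the ROSI and DMSO libraries alone or without DMSO replicate 3, TBT replicate 1 or TBT replicate 4 (-0.67 to -0.57).

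Stat2 and Irf9, transcription factors that act on the ISRE, were lower in ROSI. Stat2 had 167 ± 41.03 CPM in TBT, 52.2 ± 1.66 CPM in ROSI and 207 ± 58.7 CPM in DMSO (SD, n = 4 each) and fell in ROSI (log2 fold change -1.98 ± 0.20, edgeR adjusted p = 2.2e-06). Irf9, the DNA-binding partner of STAT2, had 70.9 ± 16.1 CPM in TBT, 22.4 ± 2.17 CPM in ROSI and 79.8 ± 23.9 CPM in DMSO (SD, n = 4 each) and fell (log2 fold change -1.83 ± 0.21, edgeR adjusted p = 6.9e-06). The 2 genes in TBT against DMSO were at -0.30 ± 0.19 and -0.17 ± 0.20 and did not pass. Irf7, the factor that amplifies type I interferon and is itself induced by it, had 39.2 ± 25 CPM in TBT, 4.57 ± 0.687 CPM in ROSI and 58.4 ± 25.9 CPM in DMSO (SD, n = 4 each) and fell in ROSI (log2 fold change -3.66 ± 0.43, edgeR adjusted p = 9.2e-06). In TBT it was at -0.57 ± 0.35 (adjusted p = 0.28) with all libraries and at -1.06 without TBT replicate 4 (adjusted p = 0.0083). Irf1 fell in ROSI (log2 fold change -1.17 ± 0.18, adjusted p = 0.00016) and in TBT (fitted log2 change -0.64 ± 0.18, adjusted p = 0.025), the TBT call being lost with a replicate block or without DMSO replicate 2 or 4 or TBT replicate 2 or 3 (-0.66 to -0.52). Stat3 fell in TBT (fitted log2 change -0.64 ± 0.15, adjusted p = 0.011) and did not pass in ROSI (-0.05 ± 0.15).

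Of the sensors of viral nucleic acid and their adaptors, 6 of 8 tested were lower in ROSI as well, where 12.6% of all tested genes were. Ddx58, which encodes RIG-I, had 157 ± 33.3 CPM in TBT, 31.3 ± 5.88 CPM in ROSI and 151 ± 46.7 CPM in DMSO (SD, n = 4 each) and fell in ROSI (log2 fold change -2.26 ± 0.21, edgeR adjusted p = 1.4e-06). Ifih1, the sensor MDA5, fell (log2 fold change -2.09 ± 0.24, edgeR adjusted p = 8.4e-06) and Dhx58, their regulator LGP2, fell (log2 fold change -2.45 ± 0.26, edgeR adjusted p = 3.9e-06). In TBT these 3 were at 0.06 ± 0.20, 0.02 ± 0.22 and -0.17 ± 0.22 and did not pass. Zbp1, a sensor of Z-form nucleic acid, had 11.9 ± 4.78 CPM in TBT, 1.2 ± 0.383 CPM in ROSI and 32.03 ± 18.1 CPM in DMSO (SD, n = 4 each). It fell in ROSI (log2 fold change -4.67 ± 0.46, edgeR adjusted p = 2e-06) and in TBT (fitted log2 change -1.41 ± 0.35, edgeR adjusted p = 0.013), the TBT call being lost without DMSO replicate 1 (-0.97). Tmem173, which encodes STING, fell in ROSI (log2 fold change -1.25 ± 0.22, adjusted p = 0.00039) and in TBT (fitted log2 change -1.08 ± 0.22, adjusted p = 0.0042). Tlr3, the endosomal sensor of double-stranded RNA, fell in ROSI (log2 fold change -1.04 ± 0.30, adjusted p = 0.016), a call lost without DMSO replicate 1 or ROSI replicate 2 (-0.93 to -0.82). In TBT it was at 0.76 ± 0.28 (edgeR adjusted p = 0.071) and passed without DMSO replicate 1, TBT replicate 2 or TBT replicate 4 (0.94 to 0.98). Mavs, the adaptor of RIG-I and MDA5, was at 0.14 ± 0.12 in ROSI and 0.14 ± 0.12 in TBT and did not pass.

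Among regulators, Socs3, an inhibitor of cytokine receptors, fell in ROSI (log2 fold change -0.79 ± 0.15, edgeR adjusted p = 0.0012) and in TBT (fitted log2 change -0.96 ± 0.16, adjusted p = 0.00098). Ptpn1, a phosphatase that acts on JAK kinases, fell in ROSI (log2 fold change -0.51 ± 0.14, edgeR adjusted p = 0.013) and lost the call without ROSI replicate 4 (-0.45). Ptpn11, the phosphatase SHP2, rose in ROSI (log2 fold change 0.32 ± 0.11, adjusted p = 0.037) and in TBT (fitted log2 change 0.38 ± 0.11, adjusted p = 0.023). Its ROSI call was lost without DMSO replicate 1 or 4 or any ROSI replicate (0.29 to 0.35), and its TBT call without DMSO replicate 1 or 4 or TBT replicate 2 or 3 (0.35 to 0.37).

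Markers of other cells were followed because leukocytes carry many of these genes at high levels. The summed level of 12 macrophage and leukocyte genes was 18.9 to 34.8 CPM in TBT, 19.3 to 31.3 CPM in ROSI and 23.9 to 27.8 CPM in DMSO, most of it from Cd68 and Cd14. Ptprc, which encodes the leukocyte antigen CD45, had 9 counts in TBT, 4 in ROSI and 26 in DMSO. Emr1, the macrophage antigen F4/80, had 8 counts in TBT, 0 in ROSI and 12 in DMSO, and Itgam, an integrin of myeloid cells, had 6 in TBT, 1 in ROSI and 15 in DMSO. Ptprc, Emr1, Itgam, Cd14 and Aif1 had their fewest counts in ROSI, and Csf1r and Fcer1g had theirs in TBT. Cd68, Lyz2 (8 in TBT, 11 in ROSI and 8 in DMSO) and Cx3cr1 (2, 6 and 2) had their most counts in ROSI. Laptm5 had 1 in ROSI and 0 in TBT and DMSO, and Tyrobp had 0 in all 12 libraries. Reads on sensory receptor genes were also fewest in ROSI (57.9 to 72.0 CPM) and most in DMSO (285.5 to 754 CPM). The part of such stray reads in these low counts was not tested. Of 3 tested genes in this list 1 rose in ROSI, Cd68 (log2 fold change 0.73 ± 0.23, edgeR adjusted p = 0.031), named after its values were seen. Of 5 plasmacytoid dendritic cell genes the sum was 287 to 376 CPM in TBT. In ROSI it was 260 to 311 CPM and in DMSO 304 to 418 CPM. Most of it came from Tcf4, with 5912 counts in TBT, 6295 in ROSI and 5961 in DMSO. Bst2, which is also in the effector list, is among the 5 genes. Siglech, a marker of these cells, had 2 counts in TBT, 1 in ROSI and 5 in DMSO. Of 5 endothelial genes the sum was 4.44 to 7.92 CPM in TBT, 2.51 to 4.42 CPM in ROSI and 7.60 to 9.83 CPM in DMSO. Kdr, a receptor of endothelial growth factor, was lower in ROSI than in DMSO (log2 fold change -1.66 ± 0.36, edgeR adjusted p = 0.0027). The sum of 4 erythroid genes was 7.83 to 16.2 CPM in TBT, 10.8 to 12.5 CPM in ROSI and 12.2 to 24.2 CPM in DMSO, nearly all from Alas2, which fell in TBT (fitted log2 change -0.76 ± 0.24, edgeR adjusted p = 0.042) and in ROSI (-0.73 ± 0.24, adjusted p = 0.034). Summed stromal markers were at 2264 to 2656 CPM in TBT, 1289 to 1658 CPM in ROSI and 3262 to 4131 CPM in DMSO, and the 7 fat-cell genes at 2005 to 3236 CPM in TBT, 3866 to 5462 CPM in ROSI and 968 to 1864 CPM in DMSO. Pdgfra, Col1a2 and Ly6a gave most of the stromal sum. Of 9 tested stromal genes 5 fell in ROSI, where 12.6% of all tested genes did, and 2 were fitted above 0. Ly6a had the largest fall of them (log2 fold change -2.87 ± 0.30, edgeR adjusted p = 2.8e-06). Lpl and Fabp4 gave most of the fat-cell sum. In ROSI against DMSO 4 of the 7 fat-cell genes rose, where 10% of all tested genes did, and 1 fell, where 12.6% did. In TBT against DMSO 3 rose, where 8.22% did, and 2 fell, where 7.03% did. Plin1 rose with Lpl and Fabp4 in both (log2 fold change 2.22 in ROSI and 1.69 in TBT), and Cebpa rose in ROSI (1.32). Cfd, the secreted protease adipsin, fell in TBT (fitted log2 change -1.90 ± 0.31, edgeR adjusted p = 0.00099) and in ROSI (-0.82 ± 0.28, adjusted p = 0.044). Adipoq, which encodes adiponectin, fell in TBT (fitted log2 change -2.17 ± 0.29, edgeR adjusted p = 0.00019). The stromal and fat-cell sums differed between the groups alongside the effector genes, and the part of any of these marker sums in the effector levels was not tested.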

How the data were processed

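RNA-seq libraries of 12 samples, 4 in each of 3 groups, were sequenced on the SOLiD platform, per the labels. The authors deposited whole-number read counts per gene symbol for all 12 libraries, and these counts were used here. A deposited table of regularized log2 values was not used. Per the submitters' processing notes, FastQC, SAMtools, DESeq2 and the genome build mm9 were used, while for aligner, counter and annotation the name is not given in the sources used here. No source states that counting used strand, so reads of overlapping genes cannot be told apart. Reads that fit near-identical copies can be split or lost, which is why pairs of copies are named as uncertain.

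With R 4.3.3 and edgeR 4.0.16, filterByExpr kept 12323 of 23955 genes, libraries were scaled by TMM, and 1 quasi-likelihood model with 3 groups and no covariates was fitted to the 12 libraries. P-values were adjusted by Benjamini-Hochberg over all tested genes, with a threshold of 0.05. The SE is the absolute log2 fold change divided by the square root of the F statistic. CPM were computed from the counts. The script was tested on simulated data. No 2 libraries of a group were alike within counting noise, the lowest chi-square per degree of freedom being 4.66.

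The members and lists were chosen with earlier results of these data known. The genes named are the members with most reads in each role group (4 in a group of 9 or more, 3 in a group of 5 to 8, 2 in smaller ones), every call in TBT against DMSO, the 5 largest and 5 smallest changes in ROSI against DMSO, and those that did not pass the filter. Promoter windows came from RefSeq GRCm38.p6. Transcript GC content, transcript length and shared 50-base words came from GENCODE M21, a comparison chosen after the data were seen. Alternatives were 7 other settings, among them DESeq2 1.42.0, and leaving out each of the 12 libraries. Tables were summarised with Python 3.11.15. No protein sequences were used here. Values of some pathway genes are not reported here, and the counts over the pathway list include them.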

Additional observations from a re-analysis of the deposited data

Results flagged for a closer look

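In each group of 4 libraries, the highest or lowest library of a gene was compared with its nearest neighbour relative to the whole range (Dixon's test at 95%). Of 156 groups, 9 had a library that stood apart, and chance flags about 1 in 20 groups. TBT replicate 4 stood apart for 2 genes, high in both: Ifitm2 at 485 CPM with the next library at 142 CPM, and Ifi27l2a at 96.8 CPM with the next at 68.5 CPM. DMSO replicate 1 was high for Cmpk2, at 35.4 CPM with the next at 19.4 CPM, and for Parp9, at 55.8 CPM with the next at 36.7 CPM. TBT replicate 2 was low for Ube2l6, at 3.86 CPM with the next at 6.97 CPM. ROSI replicate 1 was high for Oas2, at 0.752 CPM with the next at 0.201 CPM, low for Ifi203, at 33.1 CPM with the next at 38.4 CPM, and low for I830012O16Rik, at 1.003 CPM with the next at 1.9 CPM. ROSI replicate 3 was high for Dtx3l, at 21.2 CPM with the next at 19.9 CPM.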

How the results depend on the processing

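In ROSI against DMSO, 47 to 52 listed genes lay past the threshold under the 19 alternatives, all lower, with 48 to 53 of them tested. In those fits 16.8% to 28% of all tested genes passed in either direction. In TBT against ROSI 46 to 51 listed genes were higher, again with 48 to 53 tested, and 13.7% to 38.2% of all tested genes passed. The 3 groups share numbers 1 to 4, but only 2 of 12 same-numbered pairs correlated above 0.1 (-0.43 to 0.14), and 3 of 24 comparisons placed a library best with its own number. With a replicate block, 2289, 1160 and 2154 of all tested genes passed in ROSI against DMSO, TBT against DMSO and TBT against ROSI, against 2787, 1879 and 2940 without it. Fitting only the TBT and DMSO libraries gave 1199 for that comparison. Ifitm1 and Ifitm3 lost their TBT calls under each of these 2 settings, and the cause was not tested. Under the block Irf1 lost its TBT call (adjusted p = 0.062), Ifi204 and Ifitm2 lay outside the threshold in ROSI against DMSO, and so did Ube2l6 in TBT against ROSI. By DESeq2's Wald test Ifitm2 also lay outside it in ROSI against DMSO (-1.18). Ptpn11 lost its ROSI call with upper-quartile scaling, no filter or the block, which left 1 pathway gene higher in place of 2. Upper-quartile scaling, the block or 2 groups alone left 0 pathway genes higher in TBT against DMSO in place of 1, while without the filter 5 listed genes were higher in place of 2. The block left 2 pathway genes lower in TBT against ROSI in place of 4. The longer ISRE form was in 28.6% of windows and the core in 46.9%. Turns of sign were followed only for the genes named by the rule given above. Among these, the sign in TBT against DMSO turned for Usp18 without the filter (0.01), and for Parp12 (-0.01) and Trim30a (-0.05) with upper-quartile scaling. None of the 3 lay past the threshold. Over all 52 tested genes of the list, 32 were fitted below 0 with upper-quartile scaling, against 27 with TMM. Leaving out 1 library gave 1019 to 4124 calls over all genes in TBT against DMSO, the lowest without DMSO replicate 1 and the highest without TBT replicate 4, with 1 to 9 listed genes lower, 1 to 8 higher and 0 to 3 pathway genes higher. In TBT against ROSI it gave 1732 to 4826 calls, the lowest without TBT replicate 1 and the highest without TBT replicate 4, with 0 to 1 listed genes and 2 to 4 pathway genes lower. In ROSI against DMSO it gave 1 to 2 pathway genes higher. With 1 library left out, the sign in TBT against DMSO also turned for 10 of the named genes, which did not pass: Ifit1 (-0.04 to 0.61), Ifit2 (-0.24 to 0.02), Rsad2 (-0.11 to 0.59), Rtp4 (-0.23 to 0.18), Usp18 (-0.23 to 0.23), Parp12 (-0.08 to 0.20), Trim30a (-0.15 to 0.26), Ifi205 (-0.14 to 0.18), Mx1 (-0.93 to 0.38) and Trim21 (-0.01 to 0.39). A mean of at least 5 CPM took Mx1, Oas2, Oas3 and Sp100 out of the test. Depth limits the rarest genes, such as Mx1, Oas2 and Epsti1, which had few counts in ROSI.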
